A study of Arabidopsis thaliana with 2 samples.

Results

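AP3, PI and UFO are genes of petal and stamen development in Arabidopsis thaliana, and the intervals bound in vitro by LEAFY (LFY) that are listed at these loci are described here. LFY is a plant-specific transcription factor that turns flower primordia on. AP3 and PI encode MADS-domain transcription factors that act as a pair, the B function of flower development, and UFO encodes the F-box subunit of an SCF ubiquitin ligase that works with LFY to activate AP3. An interval was taken when it overlapped the span of AP3 (AT3G54340), PI (AT5G20240) or UFO (AT1G30950), the 3 kb upstream of the gene start or the 1 kb downstream of the gene end. This gave 12 intervals, 9 of the 22514 in the DAP list and 3 of the 4882 in the ampDAP list.

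Both lists come from DNA affinity purification sequencing, in which a tagged protein made in vitro is mixed with sheared naked DNA and the bound fragments are sequenced, so no chromatin is present. LFY carried a 5XMyC tag and was made by coupled transcription and translation in both libraries. DAP used genomic DNA taken from 35S::LFY seedlings (a line that carries LFY under the 35S promoter), which keeps its cytosine methylation, and ampDAP used PCR-amplified genomic DNA, from seedlings whose label names no transgene, in which methylation is lost. Seedlings of both groups were 2 weeks old and raised in long days on Murashige and Skoog medium at 0.5 strength. Each kind of DNA is 1 library, so no test between them was possible, and the methylation, the amplification and the plant source of the DNA cannot be told apart. The files hold positions only: every interval is 400 bp wide and has no height, score or p-value, and read depth is unknown.

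The gene table used here gives the ends of each gene but no strand. The gene start was taken as the higher-coordinate end for AP3 and the lower-coordinate end for PI and UFO, from general knowledge of the TAIR10 annotation, which the files do not hold. Where the opposite reading changes which sites are chosen or on which side of the gene they lie, it is given beside the values. Exons are not in the table, so a site inside a gene is placed by its distance from the gene start alone. Coordinates are those of the files, counted from 1, in TAIR10 per the submitters' processing notes.

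In this window all 3 genes had LFY sites on both kinds of DNA. AP3 had 3 DAP sites and 1 ampDAP site, PI had 4 DAP sites and 1 ampDAP site, and UFO had 2 DAP sites and 1 ampDAP site. With 1 kb upstream in place of 3 kb, PI would have 0 DAP and 0 ampDAP sites, and with no downstream part UFO would have 1 DAP and 0 ampDAP sites. The opposite orientation would leave PI with 1 DAP site and 0 ampDAP sites. Having a DAP site in such a window is common: 74.7% of 27444 protein-coding genes had at least 1 when every gene was read from its lower-coordinate end, and 74.5% when read from its higher-coordinate end. An ampDAP site was found for 26.5% and 26.6% of genes in the same readings. The ampDAP sites of the members, at 3 of 3 genes in the orientation used here, thus stand against a background of about 1 gene in 4. The genes were chosen for their role in flowers and with earlier results of these data known.

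**Figure D1:**
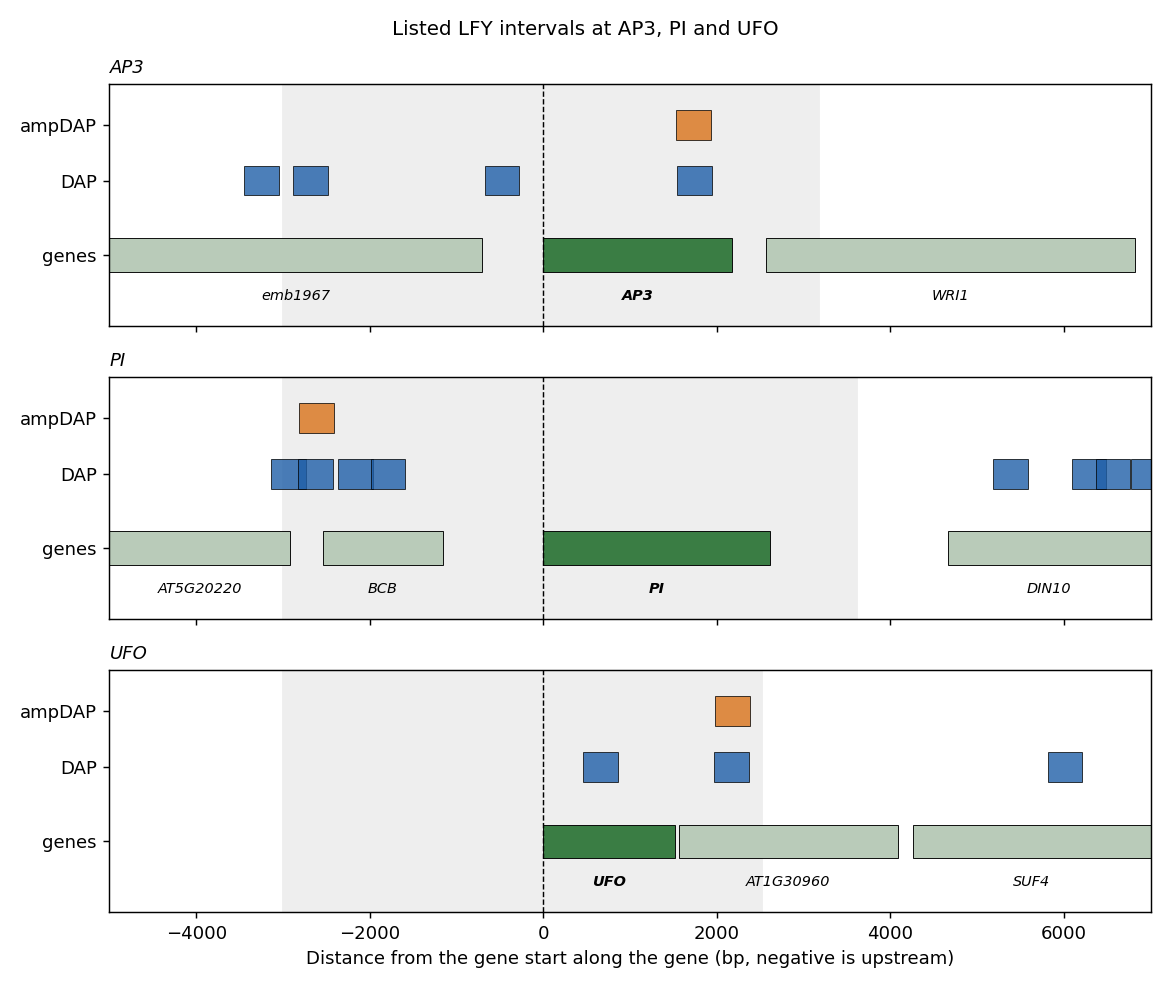
Listed LFY intervals at AP3, PI and UFO, drawn by distance from the gene start (bp, negative upstream; dashed line at 0), with DAP intervals in blue, ampDAP intervals in orange, the named gene in dark green and other protein-coding genes in light green. The grey band is the window that chose the members. The ampDAP interval lies inside AP3, 2617 bp upstream of PI and 662 bp past the end of UFO, each time over a DAP interval.

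At AP3, on chromosome 3, the site found on both kinds of DNA was inside the gene. The DAP interval chr3:20119370-20119769 had its midpoint 1745 bp from the gene start, at 80.2% of the gene span of 2175 bp, and the ampDAP interval chr3:20119381-20119780 had its midpoint at 1734 bp. The site therefore lay in the far part of the gene as seen from the start, 429 bp (DAP) from the other end. Read in the opposite orientation, the same DAP midpoint would lie 429 bp inside the gene from its start.

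The AP3 promoter held a DAP site and no ampDAP site. The DAP interval chr3:20121590-20121989 had its midpoint 475 bp upstream of the AP3 start, overlapped no annotated gene, and was the nearest of the 9 DAP sites to its gene start among those upstream. Its midpoint was 228 bp from the neighbouring gene emb1967, so it lay in the space shared by both genes. The nearest ampDAP midpoint was 2209 bp away, which is the site inside AP3. The remaining DAP interval, chr3:20123795-20124194, lay 2680 bp upstream of AP3, inside emb1967, with the nearest ampDAP midpoint 4414 bp away. A further DAP interval, chr3:20124365-20124764, began 51 bp beyond the window, also inside emb1967, and is not counted among the 3. In the opposite orientation the site at 475 bp would lie 475 bp past the end of AP3 in place of upstream, and the site at 2680 bp would fall outside the window, which would leave 2 DAP sites and the 1 ampDAP site.

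At PI, on chromosome 5, all 4 DAP sites lay upstream and formed one tight run, and none lay in PI itself. Their midpoints were 2937, 2627, 2162 and 1789 bp upstream of the gene start, in the intervals chr5:6825768-6826167, chr5:6826078-6826477, chr5:6826543-6826942 and chr5:6826916-6827315. The farthest of these reached beyond the window and had 264 of its bases inside it. The steps between midpoints were 310, 465 and 373 bp, so that the 2 intervals farthest from PI overlapped by 90 bp and the 2 nearest to it by 27 bp. Overlap was found for 5.93% of neighbouring pairs in the DAP list. The run spanned 1148 bp from the first to the last midpoint. Of the 22499 runs of 4 consecutive sites in the DAP list, 13 (0.0578%), the PI run among them, were as short, a comparison chosen after the positions were seen.

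The ampDAP list held 1 interval in this run, chr5:6826088-6826487, at 2617 bp upstream of PI. It lay over the DAP site at 2627 bp, 10 bp from its midpoint. The midpoints of the DAP sites at 2937, 2162 and 1789 bp were 320, 455 and 828 bp from that ampDAP midpoint, so these did not pair within 200 bp, although the farthest of them from PI overlapped the ampDAP interval. The run also lay at other genes. The site at 2937 bp had its midpoint inside AT5G20220, and those at 2162 and 1789 bp inside BCB, which encodes a blue copper-binding protein. The midpoint of the paired DAP site lay between AT5G20220 and BCB, 88 bp from BCB. Both intervals of the pair overlapped BCB and the long non-coding RNA gene AT5G20225. The interval of the site at 2937 bp overlapped AT5G20225 too. DAP midpoints were then missing over 7174 bp, a stretch that takes in the near PI promoter and the whole of PI, up to the next DAP site inside DIN10. Gaps at least this long made up 22.6% of the 22509 gaps between neighbouring DAP sites. With PI read in the opposite orientation, its window would hold 1 DAP site, that of DIN10 at 2774 bp, and 0 ampDAP sites.

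At UFO, on chromosome 1, there was no site upstream. One DAP interval, chr1:11036450-11036849, lay inside the gene, 657 bp from its start and at 43.3% of its span of 1517 bp, and its nearest ampDAP midpoint was 1521 bp away. The other, chr1:11037960-11038359, lay 651 bp past the end of UFO and was paired with the ampDAP interval chr1:11037971-11038370, whose midpoint was 662 bp past the end. Both of these midpoints were inside the neighbouring gene AT1G30960. In the opposite orientation the same sites would be chosen, with the site inside the gene at 859 bp from the start, and the paired site would lie 651 bp (DAP) upstream of the gene start in place of downstream.

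The side of UFO taken as upstream was empty over a long distance. The next DAP midpoint on that side was 21779 bp from the UFO start, which left 22436 bp between neighbouring DAP midpoints, with 1 protein-coding gene wholly inside. Of all gaps between neighbouring DAP sites, 2.21% were at least as long, and the median was 3120 bp. The next ampDAP midpoint on that side was 45506 bp from the UFO start. This comparison too was chosen after the positions were seen.

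Taken over the 3 loci, 6 of the 9 DAP sites lay upstream of the gene start, 2 in the gene and 1 downstream, and 1 of these 6 was within 1 kb of the start, the one at AP3. Of the 9 midpoints, 2 were inside the named gene, 5 inside another protein-coding gene and 2 in no protein-coding gene. An interval overlapping the gene span itself was listed for AP3 and UFO in DAP, as for 47.1% of protein-coding genes, and for AP3 in ampDAP, as for 12.9%. Over the whole series, 76.1% of DAP midpoints and 68.1% of ampDAP midpoints were inside a protein-coding gene. The 7 of 9 members inside a gene are therefore near the background. For 2 of the 9 DAP sites and 1 of the 3 ampDAP sites, the gene named was also the nearest protein-coding gene. The AP3 site inside the gene was 824 bp from WRI1, which encodes a regulator of seed oil synthesis, and the UFO site past the gene end was 2091 bp from SUF4, a flowering-time gene. All 9 DAP sites also fell in the window of another protein-coding gene, taken as 3 kb on both sides. Such windows of at least 2 genes held 79.8% of all DAP sites, so a site at these loci cannot be assigned to one gene by position.

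The numbers of DAP sites were ordinary for UFO and in the upper part of the range for PI. At least 2 DAP sites, as at UFO, were found for 43.3% of protein-coding genes read from the lower-coordinate end, the end taken as the start of UFO and PI. At least 4, as at PI, were found for 8.41% in that reading. At least 3, as at AP3, were found for 20.9% of genes read from the higher-coordinate end. Per length, the windows held 0.486 DAP sites per kb at AP3, 0.605 at PI and 0.363 at UFO, against 0.237 over all protein-coding windows. That mean takes in the windows with 0 DAP sites, 25.3% of those read from the lower-coordinate end. The DAP values are the site counts divided by window length, so they add nothing to the shares given for those counts. The ampDAP sites came to 0.162 per kb at AP3, 0.151 at PI and 0.181 at UFO, against 0.0491 over all windows read from the lower-coordinate end and 0.0492 from the higher. Each of these ampDAP values is 1 site divided by the window length, so their order is that of the window lengths. Of all windows read from the lower-coordinate end, 73.5% held 0 ampDAP sites. The values above the mean therefore add nothing to having 1 site.

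**Figure D2:**
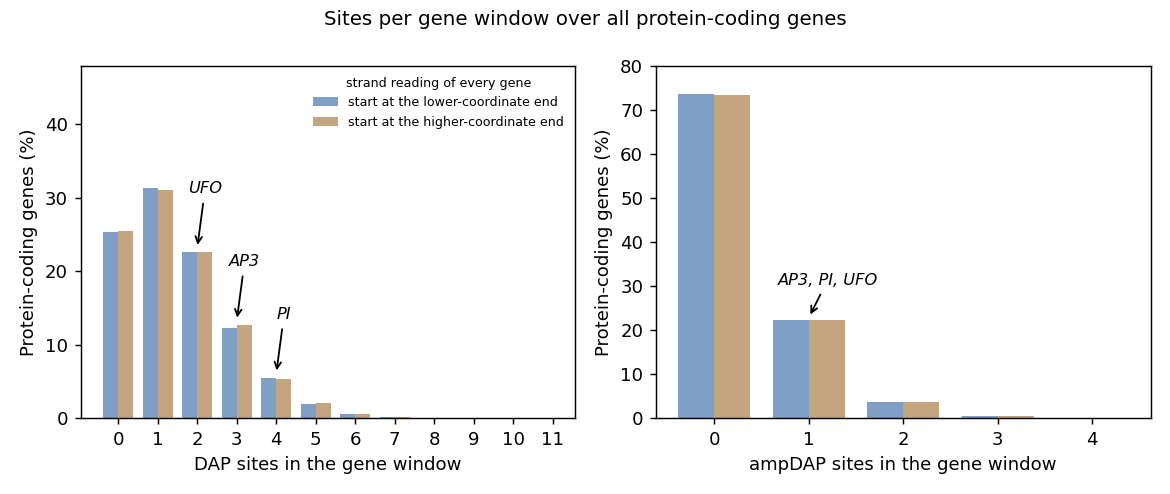
Percent of protein-coding genes by the number of DAP sites (left) and ampDAP sites (right) in the window of 3 kb upstream, gene span and 1 kb downstream, with bars for each reading of the strand applied to every gene, and arrows at the counts of the named genes. UFO, AP3 and PI stand at 2, 3 and 4 DAP sites, and all of them at 1 ampDAP site, the count of 22.2% or 22.3% of genes.

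Each of the 3 ampDAP sites had a DAP partner within 200 bp, as did 94.0% of all 4882 ampDAP sites. The ampDAP midpoint lay 11 bp from the DAP midpoint at AP3, 10 bp at PI and 11 bp at UFO, in each case on the higher-coordinate side. Over the series, 70.9% of the 4591 paired ampDAP sites were as close as 11 bp or closer, and 48.5% lay on the higher side, comparisons chosen after the offsets were seen. The remaining 6 DAP sites had their nearest ampDAP midpoint between 320 and 4414 bp away.

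**Figure D3:**
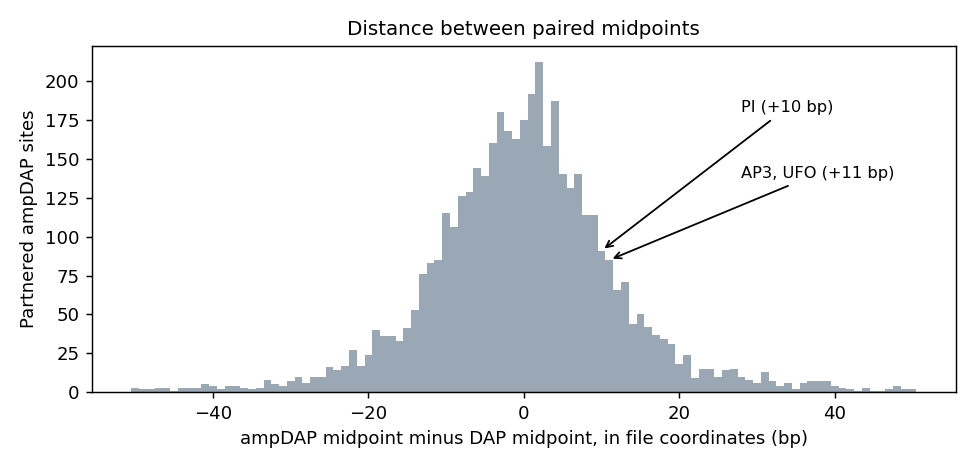
Number of paired ampDAP sites over the whole series by the distance from the DAP midpoint to the ampDAP midpoint in file coordinates (bp, the outer tails not shown), with arrows at the offsets of the AP3, PI and UFO pairs. The 3 pairs lie at 10 or 11 bp, on the right flank of a distribution centred near 0.

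Of the 9 DAP sites, 3 had an ampDAP partner within 200 bp (33.3%, exact Clopper-Pearson 95% interval 7.49 to 70.1%, which covers counting error only and treats sites as independent, although those of the PI run overlap). Among the 21557 DAP sites within 3 kb of a protein-coding gene, 20.1% had a partner. The interval includes this value. A DAP site without a partner is one that the shorter ampDAP list does not hold, and since depth and threshold are unknown this does not show that LFY was not bound there on amplified DNA.

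Other genes of petal and stamen development were counted from a list of 25, all found in the gene table. Because their strand was not used here, windows reached 3 kb to both sides. A DAP site was found for 19 of 25 genes (76.0%), against 82.3% of all protein-coding genes, and an ampDAP site for 15 of 25 (60.0%), against 32.6%. With 1 kb on both sides, 8 of the 25 genes had an ampDAP site, against 19.9% of all protein-coding genes. The median number of DAP sites was 2 in the list and 2 over all genes, and the median number of ampDAP sites was 1 in the list and 0 over all genes. In the narrower windows of the rule, 13 genes (52.0%) had an ampDAP site read from the lower-coordinate end and 10 (40.0%) from the higher, against 26.5% and 26.6%. The list was chosen with earlier results of these data known, and several of its genes are established LFY targets, so the counts are a description.

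Of 12 partners and regulators of AP3 and PI, 10 (83.3%) had a DAP site with 3 kb on both sides. The share of all protein-coding genes was 82.3%. An ampDAP site was found for 8 of the 12 (66.7%), against 32.6%. In the narrower windows of the rule, 7 (58.3%, lower-coordinate end as start) and 5 (41.7%, higher) had an ampDAP site, against 26.5% and 26.6%. AP1, a MADS gene that specifies floral identity, had 2 ampDAP and 4 DAP sites. SEP3, which encodes a MADS cofactor of the B-class pair, had 2 ampDAP and 5 DAP sites, and its relatives SEP1 and SEP4 had 1 ampDAP site each. AG, the stamen and carpel identity gene, and LUG, a co-repressor gene, each had 1 ampDAP site inside the gene. SUP, which keeps AP3 and PI out of the centre of the flower, had 1 ampDAP site 2435 bp from the gene, and the MADS gene AGL24 had 1 at 2243 bp. SEP2 and SVP had 0 sites in either list.

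With 3 kb on both sides, all 3 listed genes for partners of UFO in its ligase had a DAP site, against 82.3% of all protein-coding genes. All 3 also had an ampDAP site, against 32.6%. In the narrower windows of the rule 2 of the 3 had an ampDAP site in either reading, against 26.5% and 26.6%. ASK1 and ASK2, which encode SKP1-type adaptors that bind F-box proteins, had 3 and 2 DAP sites and 1 ampDAP site each, at 1749 and 2740 bp from the gene. CUL1, the cullin scaffold, had 4 DAP sites and 1 ampDAP site, the latter inside the gene.

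Of 7 genes on which the AP3 and PI proteins act, 4 (57.1%) had a DAP site with 3 kb on both sides. Over all protein-coding genes the share was 82.3%. An ampDAP site was found for 2 of the 7 (28.6%), against 32.6%. These 2 were BOP1, with 1 ampDAP site 1428 bp from the gene, and BOP2, with 2 ampDAP sites, of which 1 was inside the gene and 1 was 489 bp away. BOP1 and BOP2 are related genes for BTB-ankyrin proteins of organ boundaries. In the narrower windows of the rule, 2 of the 7 (28.6%, lower-coordinate end as start) and 1 (14.3%, higher) had an ampDAP site. The shares over all protein-coding genes were 26.5% and 26.6%. The GATA factor genes GNC and GNL and the sporogenesis gene SPL/NZZ had 0 sites in either list. Of 3 genes of petal growth and placing, 2 (66.7%) had a DAP site with 3 kb on both sides, against 82.3%. An ampDAP site was found for 2 of the 3 (66.7%), against 32.6%. In the narrower windows of the rule 2 of the 3 had an ampDAP site in either reading, against 26.5% and 26.6%. PTL and JAG each had 1 ampDAP site inside the gene and 2 DAP sites, and RBE had 0 sites in either list.

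**Figure D4:**
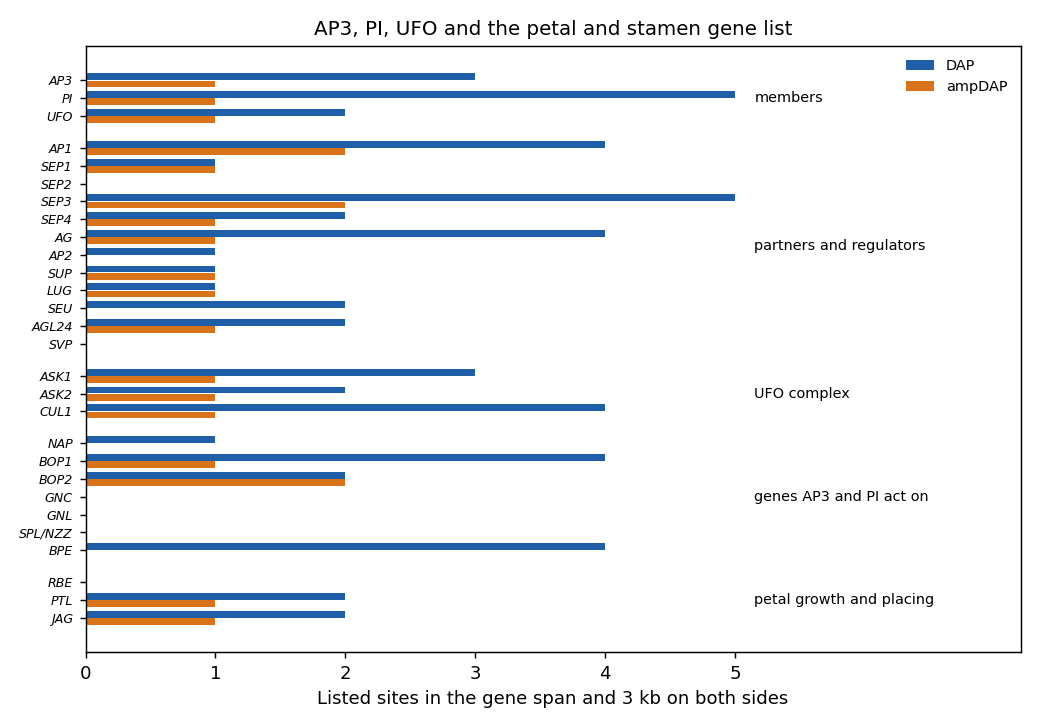
Number of listed DAP (blue) and ampDAP (orange) sites in the gene span and 3 kb on both sides, for AP3, PI and UFO and for the 25 genes of the petal and stamen list by role. On these wider windows PI holds 5 DAP sites, as SEP3 does, and 6 listed genes hold no site of either kind.

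Other genes had DAP sites at like distances from the gene start in the case of AP3 and UFO, but less so in that of PI. The same numbers of DAP and ampDAP sites as at AP3 were found for 2210 genes in at least 1 reading of the strand, as at PI for 1028 and as at UFO for 3261. Likeness was then measured as the mean absolute difference between the distances of the DAP sites to the gene start, taken in order, with the closer reading of each gene. The genes most like AP3 were AT1G16000 (46.3 bp), HAB2 (69.3 bp) and ARP7 (91.7 bp). Those most like UFO were AT3G12710 (33 bp), PnsL1 (57 bp) and AT3G26935 (59.5 bp). For PI, whose sites were 4, the differences were larger, at 320 bp for AT3G07570, 378 bp for AT2G35345 and 504 bp for FRL2. They were of the size of the steps between the PI sites themselves (310, 465 and 373 bp). More sites to match and fewer genes to choose from both make a close match harder, and no expected difference was computed. The larger values for PI therefore do not show that its arrangement is unusual. The places of the ampDAP sites did not enter this measure.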

How the data were processed

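The deposited files are 2 lists of intervals, 1 per library, with chromosome, start and end. Bowtie2, SAMtools and MACS2 and the build TAIR10 are named, without roles, versions or thresholds, per the submitters' processing notes. How the intervals came to be 400 bp wide, and whether runs were pooled, is not given in the sources used here. Groups follow the molecule type in the labels, DAP for sheared native DNA and ampDAP for PCR-amplified DNA.

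Gene spans came from RefSeq's table of TAIR10.1, a later release of TAIR10. Whether both fit was checked by shifting the midpoints in steps of 100 bp up to 3000 bp: 76.1% of DAP midpoints lay inside protein-coding genes without a shift, 68.5% after 1000 bp to one side and 68.3% to the other. Within 200 bp the share was flat (75.9 to 76.2% for DAP, and 68.1 to 68.9% for ampDAP, highest at a shift of 200 bp), so a shift of that size would not be seen. The table holds no strand or exons, and no genome sequence was used, so the planned counts of the LFY core CCANTG and matrix scores were not computed and no sequence is printed.

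A site joined a window at 1 bp of overlap, and lists were paired by midpoints within 200 bp. The genes named were the members, list genes with an ampDAP site, neighbours whose window held a member site, and 3 like genes for each member. List genes with 0 sites and DIN10 were named after their values were seen. Because strand was missing, the planned nearest gene start became the nearest gene span. The members and lists were chosen with earlier results of these data known. Python 3.11.15, pandas 2.3.3 and scipy 1.17.1 were used, and the counting was tested on simulated data.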

Additional observations from a re-analysis of the deposited data

How the results depend on the processing

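Of 77 recomputed values, 43 stayed close to the reported one (counts within 1.5 times, shares within their 95% interval) and 34 did not; the cause was not tested beyond what each window sets by construction. The 9 DAP sites of the members became 4 with 1 kb upstream, 2 with each site given only to the nearest gene span, and 5 with the opposite orientation of each gene, where 2 in place of 6 lay upstream. The 3 ampDAP sites became 1 with the nearest gene span. They were 2 with the opposite orientation of each gene, with 1 kb upstream or with no downstream part. PI had 0 sites of either kind with 1 kb upstream or the nearest gene span, and UFO had 0 ampDAP sites with no downstream part or the nearest gene span. The share of protein-coding genes with a DAP site (74.6%, mean of both readings) was 63% with 1 kb upstream, 82.3% with 5 kb or with 3 kb on both sides, 69.9% with no downstream part, 72.6% by midpoints, 50.5% by the nearest gene span and 67.4% over all annotated genes. The share with an ampDAP site (26.6%) was 19.9%, 32.6%, 32.6%, 23.4%, 25.2%, 14.7% and 23.8% in that order, and 25.5% over protein-coding genes of 1 to 3 kb. The partnered share of DAP sites (20.1%) was 17.9% with midpoints within 20 bp and 21.7% with any overlap, while the member count stayed at 3 within 20 bp and was 4 with any overlap. The petal and stamen genes with an ampDAP site fell from 15 to 8 with 1 kb to each side. The core CCANTG and matrix alternatives, which need sequence, were not run, and no stricter threshold could be set without scores. The opposite orientation, the length class and the windows on both sides were chosen after seeing the data. No paired analysis was possible because DAP and ampDAP are 1 library each, which also leaves no replicate to drop. Depth and threshold are unknown for both lists and limit how far they can be compared.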

Other observations

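The side of PI away from the run described above also held DAP sites close together. Beyond the end of PI, outside its window, 4 DAP midpoints lay inside DIN10, a gene first known as dark-inducible, and 0 of them had an ampDAP midpoint within 200 bp. Over all DAP sites within 3 kb of a protein-coding gene the share with a partner was 20.1%. Whether these 4 sites differ from it was not tested, and the intervals of some of them overlap.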
